A study of Homo sapiens with 5 samples.

Results

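The genes described here are SFRP1 and 9 other genes of the WNT pathway in PC9, an established human line of EGFR-mutant lung adenocarcinoma. They were taken by symbol from the authors' deposited comparison, and all 10 had a row among its 27477 genes. The set was selected on its place in the pathway and on the deposited fold change of SFRP1 in this comparison, so the members' fold changes are given as a description and the adjusted p-values are those the authors deposited. The series has 3 parental libraries and 2 libraries of cells that tolerated gefitinib, an inhibitor of the EGFR kinase. Tolerant cells had 6 days of 50 nM gefitinib followed by 3 days of growth medium. All cells were PC9 grown in RPMI medium with serum, and no dose or time is given for the parental group. The labels do not say whether replicates were separate cultures, so the authors' p-values reflect library-to-library spread that may be purely technical.

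WNT proteins are secreted ligands that bind Frizzled receptors together with the co-receptors LRP5 and LRP6. In the absence of a ligand, a complex built on AXIN1 and APC marks beta-catenin, the product of CTNNB1, for destruction. When the ligand binds, beta-catenin builds up and switches on target genes with DNA-binding partners of the TCF family such as TCF7L2. SFRP1 and DKK1 are secreted antagonists: SFRP1 binds WNT ligands and DKK1 blocks LRP5 and LRP6. AXIN2, RNF43 and ZNRF3 are feedback genes, since beta-catenin can induce them and their products dampen the signal, AXIN2 within the destruction complex and the ubiquitin ligases RNF43 and ZNRF3 by removing Frizzled receptors from the cell surface. In lung epithelium the pathway is known for roles in progenitor cells and repair.

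Start-site windows are shown for DKK1 and RNF43 because both are counted among the genes that beta-catenin and TCF factors can induce. Each window runs from 250 bases before to 50 after an annotated start and comes from RefSeq (GRCh38.p14), whose table held 9 windows for 6 of the 10 members (CTNNB1, DKK1, TCF7L2, LRP5, AXIN1 and RNF43). Capitals mark matches to CTTTGA or CTTTGT on either strand, which are core letters of TCF binding motifs. A match was present in 4 of the 9 windows and in 26.2% of all 35116 windows of the table, and it is a description of the letters only. DKK1 is on the plus strand at chr10:52314031-52314330, and the RNF43 windows are on the minus strand at chr17:58417485-58417784 and chr17:58402672-58402971.
DKK1: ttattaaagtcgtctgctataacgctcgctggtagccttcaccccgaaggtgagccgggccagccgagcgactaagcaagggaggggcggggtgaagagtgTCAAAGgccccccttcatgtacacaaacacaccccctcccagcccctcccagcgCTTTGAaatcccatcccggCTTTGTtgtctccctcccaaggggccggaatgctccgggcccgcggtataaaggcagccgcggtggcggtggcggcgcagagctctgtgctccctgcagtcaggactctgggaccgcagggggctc
RNF43, upstream start: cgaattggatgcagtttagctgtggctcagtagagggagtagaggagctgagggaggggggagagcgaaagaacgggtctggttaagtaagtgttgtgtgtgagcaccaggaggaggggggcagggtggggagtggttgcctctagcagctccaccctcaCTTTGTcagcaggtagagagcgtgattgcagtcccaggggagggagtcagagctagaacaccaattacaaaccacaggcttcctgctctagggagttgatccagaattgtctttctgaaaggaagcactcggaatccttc
RNF43, downstream start: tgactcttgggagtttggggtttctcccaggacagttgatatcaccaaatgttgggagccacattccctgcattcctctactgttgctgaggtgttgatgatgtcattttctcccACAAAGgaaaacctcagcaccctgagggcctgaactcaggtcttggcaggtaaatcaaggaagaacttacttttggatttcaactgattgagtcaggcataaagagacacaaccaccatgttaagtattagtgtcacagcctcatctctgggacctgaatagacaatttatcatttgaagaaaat
The DKK1 window held 3 matches, at 149, 95 and 76 bases before the start. Each RNF43 window held 1 match, at 90 and 135 bases before its start. The remaining matching window belonged to an internal start of TCF7L2.

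Values below are on one of these scales. A mean level is the authors' mean over the 5 libraries, after each library's reads were scaled by its size factor. A log2 fold change is the authors' value, positive where drug-tolerant cells were higher, and its error is the authors' standard error. The deposited fold changes had been pulled towards 0 by the authors' fit. Where a value is said to have the moderation undone, it was computed from the deposited fold change, its error and the largest error in the table. Intervals below are built on the deposited fold changes and errors. They are therefore centred nearer to 0 and are narrower than intervals from the undone values would be. On genes of mean level 1 to 5 and 5 to 10 the undone values had a median of 0.975 and 0.987 of the log2 ratio counted from reads, and 0.955 at a mean level of 10 to 25 (where 10% of genes were under 0.512), while the deposited values had 0.151, 0.356 and 0.495. Group means of members above a mean level of 10 are estimates from the mean level and the undone fold change, with no value per library behind them.

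SFRP1 (ENSG00000104332; chromosome 8, 41261958 to 41309497, GRCh38) was higher in drug-tolerant cells. The estimated group means were 2018 normalised reads in parental cells and 5205 in drug-tolerant cells. In the authors' deposited table the log2 fold change was 1.23 ± 0.24 (SE, 3 against 2 libraries), a 2.35-fold increase with a 95% interval of 1.69 to 3.27, and the adjusted p was 0.00052 (DESeq2). With the moderation undone the log2 fold change was 1.37 ± 0.27, or 2.58-fold. The call was lost, at an adjusted p of 0.78, when the DESeq2 Wald scores of all genes were centred and divided by their robust SD of 1.50, which left 1 gene called higher and 0 lower of all genes. By p-value SFRP1 stood 11th among the 15223 genes with an adjusted p and 6th among the 40 called higher, where called means an adjusted p under 0.05 in the authors' deposited table. By size of the fold change it was 19th of those 40. Its mean level of 3293 was above that of 94.1% of tested genes, and 1 other gene called higher had a larger mean. Its standard error was smaller than that of 83.2% of tested genes. In bulk RNA a larger share of SFRP1-expressing cells and more SFRP1 RNA per cell cannot be told apart.

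Of the 9 members with an adjusted p, SFRP1 was the 1 called in the authors' deposited table (DESeq2), against 0.552% of all tested genes called in either direction and 0.263% called higher. Since the set was assembled around this value, nothing is read from that count. Among the 8 other tested members 0 were called and 0 had an unadjusted p under 0.05 (DESeq2), against 0.552% and 10.8% of all tested genes. With 8 genes, nothing is read from these counts either. The median log2 fold change of these 8 in the authors' deposited table was 0.22, against -0.02 over all tested genes, with 7 above 0 and 1 below.

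**Figure D1:**
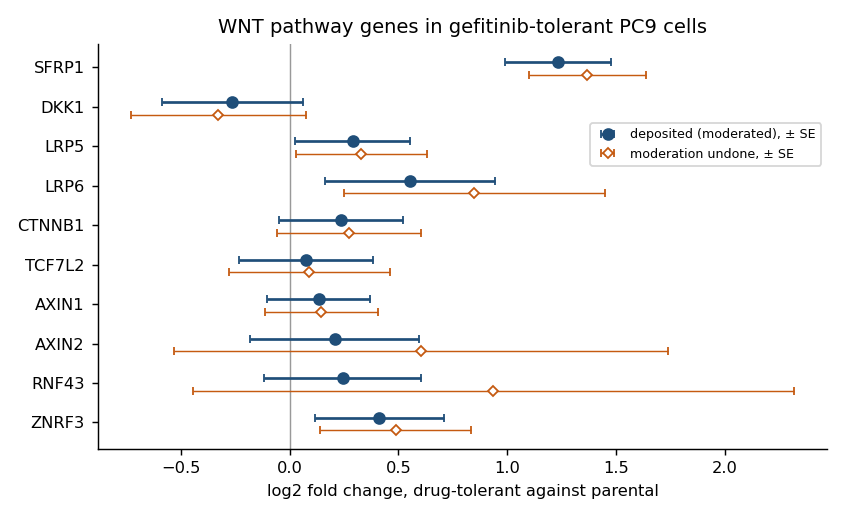
Log2 fold changes of the 10 genes, drug-tolerant against parental cells, with standard errors. Filled circles are the authors' deposited values and open diamonds have the moderation undone; SFRP1 lies at 1.23 and the 9 others between -0.26 and 0.55 on the deposited scale.

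DKK1 (ENSG00000107984; chromosome 10, 52314296 to 52318042), the other secreted antagonist in the set, lay on the other side of 0. Its estimated group means were 641 in parental and 511 in drug-tolerant cells, and its log2 fold change in the authors' deposited table was -0.26 ± 0.32 with an adjusted p of 0.69 (DESeq2). The 95% interval of -0.90 to 0.37 covers a fall to 0.536-fold and a rise to 1.29-fold. An antisense gene that overlaps DKK1 exons, PRKG1-AS1, had a mean level of 8.12 against 589 for DKK1, and whether the authors' counting used the strand was not stated in the labels.

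The co-receptors had positive values that did not pass the test. LRP5 (ENSG00000162337; chromosome 11, 68312609 to 68449275) had estimated means of 3203 and 4025 in parental and drug-tolerant cells, and the authors' deposited table put it at a log2 value of 0.29 ± 0.26 (DESeq2 adjusted p 0.60). LRP6 (ENSG00000070018; chromosome 12, 12116025 to 12267012) had estimated means of 987 and 1777, and the authors' deposited table put it at a log2 value of 0.55 ± 0.39 (DESeq2 adjusted p 0.53). LRP6 was thus the member with the second largest deposited value, and its standard error was also large: 18.0% of tested genes had a larger one. With the moderation undone LRP6 stood at 0.85 ± 0.60, and because an error this large can arise from either of a pair of information values, 1.59 is the other solution. The 95% interval in the authors' deposited table, -0.21 to 1.32, includes the value of SFRP1.

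In the beta-catenin arm, CTNNB1 (ENSG00000168036; chromosome 3, 41194741 to 41260096) had the highest level of the set, with estimated means of 4978 and 6020 in parental and drug-tolerant cells. Its log2 fold change was 0.24 ± 0.28 in the authors' deposited table (DESeq2 adjusted p 0.69). TCF7L2 (ENSG00000148737; chromosome 10, 112950250 to 113167678), the TCF factor of the set, had estimated means of 222 and 237, and the authors' deposited table put it at a log2 value of 0.08 ± 0.31 (DESeq2 adjusted p 0.92). AXIN1 (ENSG00000103126; chromosome 16, 287440 to 352673), the scaffold of the destruction complex, had estimated means of 807 and 893, and the authors' deposited table put it at a log2 value of 0.13 ± 0.24 (DESeq2 adjusted p 0.79). The upper 95% limits of CTNNB1, TCF7L2 and AXIN1, at 1.73-fold, 1.60-fold and 1.51-fold, were below the 2.35-fold value of SFRP1. The lower 95% limit of SFRP1, 1.69-fold, was under the upper limit of CTNNB1, so these intervals overlapped, and above those of TCF7L2 and AXIN1. The differences between SFRP1 and these genes were not tested.

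Set side by side per kb of transcript, CTNNB1 had the highest mean level (1139 normalised reads per kb), followed by SFRP1 (733), LRP5 (685), DKK1 (329), AXIN1 (231), LRP6 (130), ZNRF3 (81.2) and TCF7L2 (55.1). AXIN2 (1.99) and RNF43 (0.528) were far below the rest. The order of SFRP1 and LRP5 differed between the groups. SFRP1 was estimated at 449 per kb in parental cells, below LRP5 at 621. In drug-tolerant cells SFRP1 was at 1159 per kb, above LRP5 at 780 and close to CTNNB1 at 1271. For the 8 genes above a mean level of 10 no spread per library can be given, so neighbours among them cannot be told apart by a test.

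**Figure D2:**
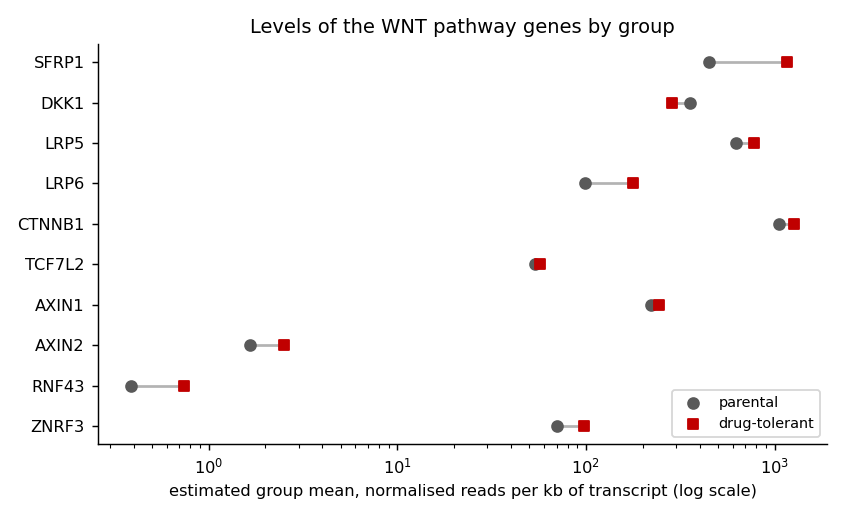
Estimated group means of the 10 genes in normalised reads per kb of transcript, on a log axis. Circles are parental and squares drug-tolerant cells; SFRP1 moves from 449 to 1159 per kb and passes LRP5, while AXIN2 and RNF43 lie below 3 per kb in both groups.

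Reads per library could be counted for low genes, because a low mean level is a sum of whole reads times 5 library steps and only 1 set of whole reads gives it. This held for all 12705 genes with a mean level under 10 and for 1659 of 1796 at 10 to 25. The libraries are named parental a to c and drug-tolerant a and b, since they cannot be matched to replicate numbers. Genes with reads in a single library had negative fold changes for 3 of the libraries and positive ones for the other two, which is how positive values were assigned to the drug-tolerant group. Depth, estimated as the size factor times the summed mean level and not counted, was about 14.2 to 21.4 M reads per library. Parental a stood apart from parental b and c: reads of protein-coding transcripts over 4 kb per read of those under 2 kb came to 0.971 in parental a but 0.614 in parental b and 0.609 in parental c, while the drug-tolerant libraries had 0.995 and 0.878.

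AXIN2 (ENSG00000168646; chromosome 17, 65528563 to 65561647), a widely used readout of beta-catenin activity, had 19, 3 and 2 reads in parental a, b and c and 10 in each drug-tolerant library. After division by the size factors the parental values were 15.9, 2.95 and 2.08 and the drug-tolerant values 8.82 and 12.7. The highest value and the lowest 2 values were all parental, so the groups overlapped. The means were 6.99 ± 7.77 (SD, n = 3) and 10.7 ± 2.73 (SD, n = 2), a ratio of 1.54. The direction depended on the parental library used: drug-tolerant cells were 4.27 times parental b and c and 0.674 times parental a. AXIN2 in parental a was 6.34 times the mean of parental b and c. Among 2166 genes with a mean level of 5 to 12 the median of that ratio was 1.42, and 13.9% had a larger one. These genes were chosen on mean level only and were not matched to the AXIN2 transcript length of 4259 nucleotides. Parental a and both drug-tolerant libraries lay above parental b and c in 3206 (35.8%) of the 8954 resolved genes with a mean level of 1 to 25. The log2 fold change of AXIN2 in the authors' deposited table was 0.21 ± 0.39 (DESeq2 adjusted p 0.80), which averages over this split.

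RNF43 (ENSG00000108375; chromosome 17, 58352500 to 58417595) was close to the floor, with 15 reads in all. Its counts were 3, 3 and 1 reads in parental a, b and c, against 5 and 3 reads after gefitinib. The normalised values were 2.52, 2.95 and 1.04 against 4.41 and 3.80, so the groups did not overlap, which was also the case for 27.7% of all resolved genes with a mean level of 1 to 25. The ratio of means was 1.89. In the authors' deposited table the log2 fold change was 0.24 ± 0.36 and no adjusted p was given. ZNRF3 (ENSG00000183579; chromosome 22, 28883592 to 29057487), which encodes the paralogous ligase, was expressed at a far higher level, with estimated means of 480 and 672. Its log2 fold change in the authors' deposited table was 0.41 ± 0.29 (DESeq2 adjusted p 0.53), with an interval of -0.16 to 0.99.

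**Figure D3:**
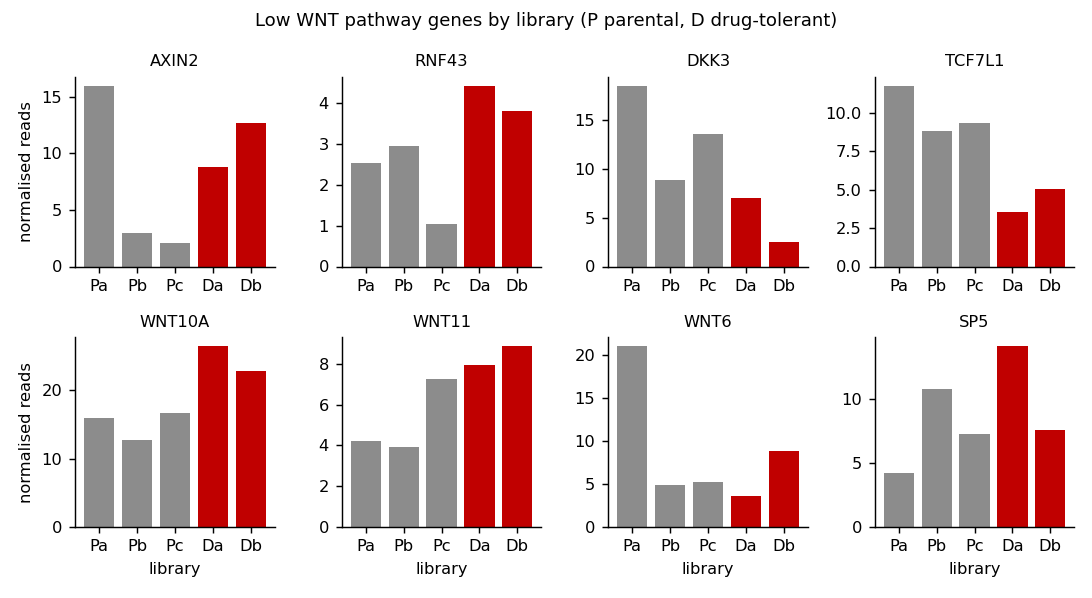
Normalised reads per library of AXIN2, RNF43 and 6 further WNT genes of low level, with parental libraries a to c in grey (Pa, Pb, Pc) and drug-tolerant libraries a and b in red (Da, Db). For AXIN2 parental a is the highest bar at 15.9 and parental b and c the lowest at 2.95 and 2.08.

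Fold changes in this comparison followed transcript length, and the members other than SFRP1 lay near that trend. Over 12461 protein-coding genes Spearman's correlation of fold change and length was 0.54, across genes, which are not independent replicates. Genes were placed in 10 groups of equal size by length. Of the 9 tested members, 7 fell inside the middle 50% of their length group. The 2 outside it were SFRP1 and LRP6, and LRP6 lay just above the upper limit. All the tested members but TCF7L2 lay above the median of their group. DKK1, with the shortest transcript of the set (1790 nucleotides), had -0.26 in the authors' deposited table against a group median of -0.31. LRP6, with the longest (10020 nucleotides), had 0.55 in the authors' deposited table against 0.38, and 75.0% of its group lay lower. ZNRF3 (6851 nucleotides) had 0.41 in the authors' deposited table against 0.29, and LRP5 (5159 nucleotides) 0.29 against 0.18. SFRP1 (4492 nucleotides) stood above 99.6% of its group, whose median was 0.11.

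With the trend in length and GC content removed, SFRP1 was at 1.13 with an adjusted p of 0.0014 (authors' DESeq2 Wald score, adjusted again). The co-receptors LRP6 and LRP5 were then at 0.21 and 0.14, ZNRF3 at 0.17, CTNNB1 at 0.13, TCF7L2 at 0.0020 and DKK1 at -0.11. The length ratio of genes with a mean level under 10 also differed between parental a and parental b and c, as given above. The part of that split in each fold change was not tested.

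**Figure D4:**
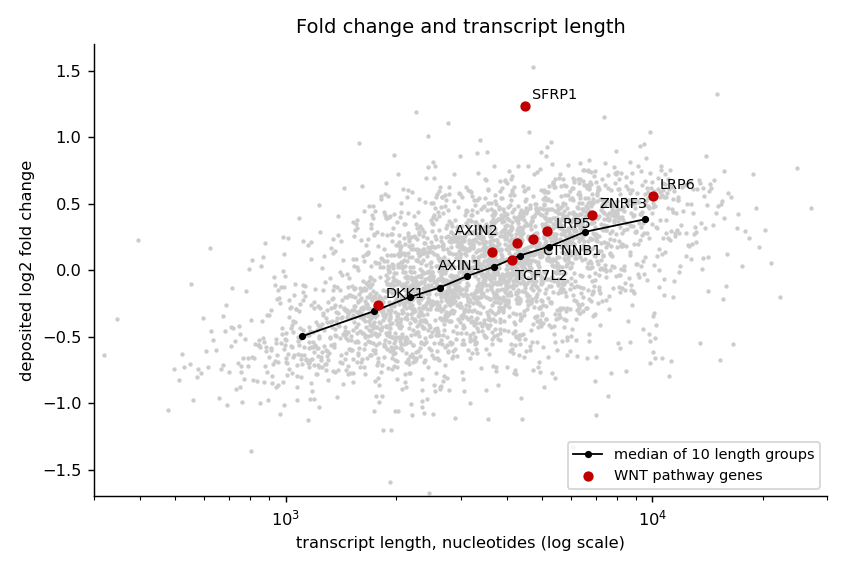
Deposited log2 fold change against transcript length on a log axis, with 1 in 4 protein-coding genes in grey, the medians of 10 length groups in black and the 9 tested WNT genes in red. SFRP1 lies at 1.23 above the line, and DKK1, LRP6 and the 6 other genes lie near it.

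The wider pathway was read through 8 lists by role, 116 genes in all, of which 98 had a row and 79 an adjusted p. SFRP1, around which the set was built, was the 1 gene of the 79 called in the authors' deposited table (DESeq2), against 0.552% of all tested genes. An unadjusted p under 0.05 was reached by 6 of the 79, or 7.59%, against 10.8% of all tested genes. The 6 were SFRP1, KREMEN2, WLS, APC, BCL9L and EPHB3.

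Among secreted antagonists and the DKK receptors KREMEN1 and KREMEN2, 1 of 5 tested genes was called higher and 0 lower, against 0.263% and 0.289% of all tested genes. The 1 is SFRP1 itself. The list median was -0.45 over the 5, and -0.10 over the 10 genes with a row. The 4 genes besides SFRP1 had negative values. KREMEN2 was at -0.83 ± 0.30 (DESeq2 adjusted p 0.27) and KREMEN1 at -0.45 ± 0.26 in the authors' deposited table. DKK3, a divergent member of the DKK family, had normalised reads of 18.5, 8.85 and 13.5 in parental libraries and 7.05 and 2.54 in drug-tolerant libraries, with no overlap. The log2 fold change of DKK3 was -0.64 ± 0.41 in the authors' deposited table (DESeq2 adjusted p 0.51). Of the other SFRP genes, SFRP4 and SFRP5 had 3 and 5 reads over all libraries.

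Of the 13 tested ligands and secretion genes, 0 were called and the median was -0.03. WLS, which carries WNT proteins to the cell surface, came nearest to the threshold, at -0.87 ± 0.24 with a DESeq2 adjusted p of 0.059 in the authors' deposited table and an interval of -1.35 to -0.39. PORCN, which attaches the lipid that WNT proteins need, was at -0.58 ± 0.36 in the authors' deposited table. The ligand with the highest mean level, WNT7B (2178), was at -0.24 ± 0.29 in the authors' deposited table. WNT9A was at -0.55 ± 0.29 and WNT4 at -0.53 ± 0.35 there. The low ligands went different ways. WNT10A had normalised reads of 15.9, 12.8 and 16.7 in parental libraries and 26.5 and 22.8 in drug-tolerant libraries, with no overlap. WNT6 had 21.0 in parental a against 4.91 in parental b, 5.20 in parental c and 3.53 and 8.87 in drug-tolerant libraries, so its groups overlapped. The WNT6 ratio of drug-tolerant to parental means was 0.598 with all libraries and 1.23 without parental a.

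Among 13 tested receptors 0 were called, with a median of 0.10. ROR1, which encodes a receptor that binds WNT5A, was at 0.41 ± 0.27 and the receptor gene RYK at -0.29 ± 0.21 in the authors' deposited table. The R-spondin arm had 2 tested genes, ZNRF3 and the R-spondin receptor LGR4, the latter at 0.31 ± 0.29 in the authors' deposited table, and 0 were called.

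In the destruction complex, 12 of 14 tested genes had positive values, against 48.4% of all tested genes, with a median of 0.22 and 0 called by DESeq2. The list's median transcript length was 6100 nucleotides against 3009 over all tested genes, and its median was 0.061 without the trend in length and GC content. APC, the tumour suppressor of the complex, was at 0.81 ± 0.40 (adjusted p 0.46) in the authors' deposited table, and its transcript, at 10701 nucleotides, is longer than that of LRP6. APC2 was at 0.49 ± 0.33, CSNK1A1, the kinase that primes beta-catenin, at 0.24 ± 0.22, and BTRC, which recognises the marked protein, at 0.26 ± 0.29 in the authors' deposited table. DVL3, a relay from receptor to complex and the list's most abundant gene by mean level (2387), was at 0.06 ± 0.20 in the authors' deposited table.

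In the nuclear arm 10 of 12 tested genes had positive values, against 48.4% of all tested genes, with a median of 0.14 and 0 called by DESeq2. Without the trend in length and GC content the list's median was 0.10. BCL9L, a coactivator of beta-catenin, was at 0.80 ± 0.34 (adjusted p 0.41) and its paralog BCL9 at 0.41 ± 0.32 in the authors' deposited table. The BCL9L transcript is long, at 10005 nucleotides. TCF7 was at 0.41 ± 0.25 and the corepressor TLE3 at 0.31 ± 0.23 in the authors' deposited table. TCF7L1, known as a repressor of WNT targets, had normalised reads of 11.8, 8.85 and 9.37 in parental libraries and 3.53 and 5.07 in drug-tolerant libraries. Its groups did not overlap, and its ratio was 0.366 against parental a and 0.472 against parental b and c. In all, 5 of 16 low pathway genes had groups that did not overlap, 3 higher and 2 lower in drug-tolerant cells, or 31.2% against the 27.7% of all genes in that range.

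Among 13 tested target genes 0 were called by DESeq2, with a median of 0.21. Values were above 0 for 10 of them and below 0 for 3, against 48.4% of all tested genes above 0. Without the trend in length and GC content the list's median was 0.15. NKD1, a feedback inhibitor with a transcript of 17105 nucleotides, was at 0.68 ± 0.37 and EPHB3, an ephrin receptor, at 0.66 ± 0.33 in the authors' deposited table. CD44, an adhesion receptor and the list's most abundant gene by mean level (31271), was at 0.33 ± 0.28 in the authors' deposited table. SP5, a transcription factor gene that beta-catenin can induce, had normalised reads of 4.20, 10.8 and 7.29 in parental a, b and c, against 14.1 and 7.61 after gefitinib. Parental a was thus the lowest parental library for SP5 and the highest for AXIN2. The planar polarity and non-canonical list had a median of 0.31 over 12 tested genes with 0 called. The long CELSR1 transcript was at 0.70 ± 0.40 and SCRIB at 0.39 ± 0.22, while the short RAC1 and RHOA transcripts were at -0.63 ± 0.34 and -0.54 ± 0.31 in the authors' deposited table. Without the trend in length and GC content that list's median became -0.055.

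**Figure D5:**
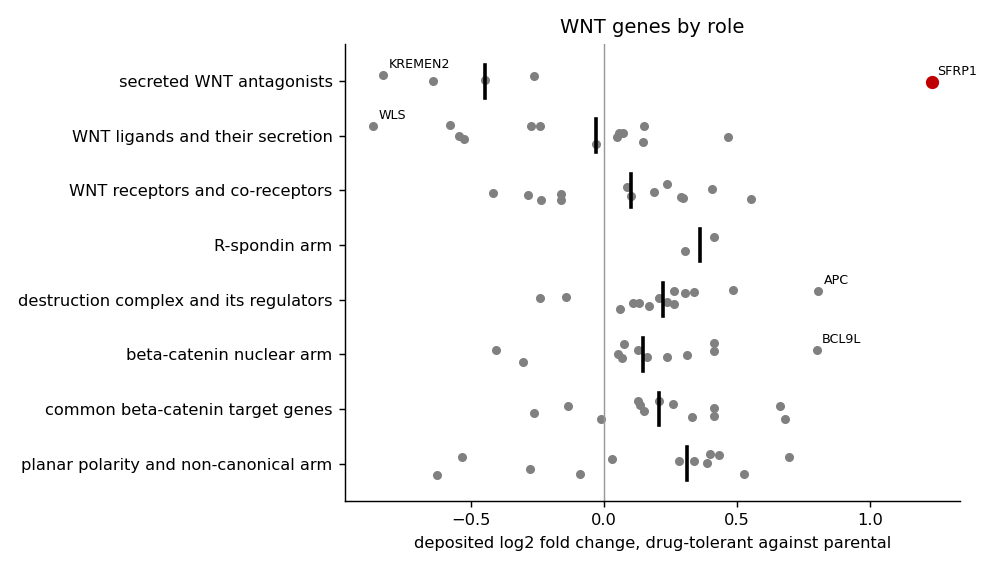
Deposited log2 fold changes of the tested genes in 8 WNT lists, 1 point a gene (a gene in several lists appears in each), with list medians as black bars and the called gene in red. SFRP1, at 1.23, is the 1 red point; KREMEN2, WLS, APC and BCL9L are the named grey points farthest from 0.

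The 6 called genes whose log2 fold change in the authors' deposited table was nearest to that of SFRP1, compared over the 2 groups and 5 libraries, were TGFBR3 (1.21 ± 0.29), BCL6 (1.20 ± 0.31), IFFO2 (1.20 ± 0.28), GRAMD1B (1.19 ± 0.31), ADAM12 (1.31 ± 0.32) and OAS1 (1.16 ± 0.26). TGFBR3 encodes a TGF-beta co-receptor, BCL6 a transcriptional repressor and ADAM12 a membrane metalloprotease. All 6 lay within 0.078 of SFRP1, and SFRP1 had the highest mean level of the 7.

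Epithelial markers were abundant. EPCAM, KRT8, KRT18, KRT19, KRT7 and CDH1 had mean levels of 3778 to 35758, while the lung lineage factor NKX2-1 had 15 reads in all. Fibroblast markers had a row for 2 of 6 genes, with COL1A1 at a mean level of 162, and the authors' deposited table put it at a log2 value of 0.04 ± 0.30. Haematopoietic markers had a row for 2 of 4, the higher being ITGAM at 25.9. Endothelial markers had a row for 3 of 4, and PECAM1, at a mean level of 1616, had a log2 value of 0.57 ± 0.26 in the authors' deposited table. CDH5, at a mean level of 253, was at 0.36 ± 0.26 in the authors' deposited table, and VWF had 35 reads in all. None of the markers was called, against 0.552% of all tested genes. An unadjusted p under 0.05 (DESeq2) was reached by 2 of them, KRT7 and PECAM1, against 10.8% of all tested genes. The part of other cells in the SFRP1 value was not tested.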

How the data were processed

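mRNA libraries of PC9 cells were compared, 3 parental and 2 drug-tolerant. Per the labels, RNA was extracted with TriZol and a stranded mRNA kit was used. The submitters' processing notes name STAR, DESeq2, FastQC and the build hg38; their versions, the counter and the gene models are not stated there. Per the file headers, the authors deposited a mean signal of size-factor-normalised reads, log2 fold changes with their standard errors, the Wald score, and p-values with adjusted values. No values per library are in the table, so no count test was fitted and the authors' adjusted p under 0.05 is the call.

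Whole reads per library were solved from mean levels under 25 with tolerances of 2.5e-09 under 10 and 9e-09 above, and tested on simulated data, as was the removal of the length and GC trend (cubic terms in log length and GC content, GENCODE 29, GRCh38). The moderation was undone by taking the largest standard error in the table, 0.41, as 50% of the prior's SD, a relation that holds for the sandwich form of such errors. Depths are size factors times the summed mean level, and intervals are 95% normal ones from the authors' errors. Python 3.11.15, numpy 2.4.6, pandas 2.3.3 and scipy 1.17.1 were used.

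The members, the 8 WNT lists, the cell type markers and the rule for named genes (members, called list genes, up to 4 list genes of smallest adjusted p at a mean level of at least 10, the most abundant of each list, the 6 called genes nearest to SFRP1, and low list genes with resolved reads) were chosen with earlier results of these data known. The alternatives were the adjusted p threshold, filters on mean level, scaling and centring of the Wald score, the length and GC trend and a fold-change minimum. Undoing the moderation, the alternatives for list medians and parental libraries, and leaving out each library for low genes were added after seeing the data.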

Additional observations from a re-analysis of the deposited data

How the results depend on the processing

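SFRP1 kept its direction and call under every alternative but 1. The set was selected on its fold change in this comparison, and every alternative reuses the authors' p-values or Wald scores. A kept call is therefore a description of the processing and no independent support. With the Wald score divided by its robust SD over all genes, 1.50, SFRP1 had a log2 fold change of 1.25 (centred) and an adjusted p of 0.78. Its adjusted p was 0.00040 to 0.0014 under the others, and it also passed a threshold of 0.01. The same scaling left 1 gene called higher and 0 lower of all genes, against 40 and 44. At a threshold of 0.01 there were 25 higher and 14 lower, with no filter on low counts 26 lower, and there were 28 lower without the trend in length and GC content. The 8 other tested members kept their sign and stayed uncalled under every alternative that gave a value. RNF43 has a value only where no filter on low counts is applied. List medians moved by more than the typical standard error of a member in 2 cases: the antagonists went from -0.45 to -0.10 with every gene that has a row, and the planar polarity list from 0.31 to -0.055 without the trend in length and GC content. The receptor list went from 0.10 to -0.05 on that removal. No paired analysis was possible because the table holds no values per library, and the libraries of low genes with recovered reads carry no replicate number. Leaving out each library could be done for such low genes only. The ratio of drug-tolerant to parental means ran from 1.14 to 4.27 for AXIN2 (the highest without parental a), 1.50 to 2.31 for RNF43, 0.186 to 0.518 for DKK3, 0.353 to 0.508 for TCF7L1, 1.51 to 1.75 for WNT10A, 1.46 to 2.07 for WNT11 and 1.02 to 1.90 for SP5. WNT6 ran from 0.340 to 1.23 and passed 1 without parental a. Depth limits AXIN2 and RNF43, which rest on 44 and 15 reads.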

Other observations

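Every tested gene that starts within 5 Mb of SFRP1 on chromosome 8 had a smaller deposited fold change than SFRP1. Of 42 tested genes that start within 5 Mb, 24 had positive values, the median log2 fold change was 0.04, and 1 was called in the authors' deposited table (DESeq2), against 0.552% of all tested genes. The called neighbour was the receptor gene FGFR1, at 1.15 ± 0.26 with an adjusted p of 0.0051 in the authors' deposited table, 2.86 Mb away. FGFR1 was named after its value was seen. The 2 nearest tested genes, GOLGA7 and GINS4, also named after their values were seen, were at -0.33 ± 0.30 and 0.54 ± 0.26 in the authors' deposited table.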
